A study of Macaca fascicularis with 44 samples.

Results

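Cluster 23 is a set of 64 cells within the extravillous trophoblast (EVT) of cultured embryos of the cynomolgus monkey, Macaca fascicularis. Its members are the cells that the authors' annotation called EVT and placed in fine cluster 23. They were 64 of 566 EVT cells and 64 of 3682 cells in all, and the fine cluster held no cell of another class. They are set against the other 502 EVT cells, which lie in fine clusters 7 (196 cells), 13 (135), 18 (87) and 19 (84), and against the remaining classes of the embryo.

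All embryos were wild type, were made by sperm injection into oocytes and were cultured from the blastocyst. The 44 RNA libraries came from 9 embryos sampled between embryonic day 16 and day 25. The annotation gives embryos E16-1 (male) and E16-2 (female) of day 16, and 1 embryo each named E18 (male), E20 (female), E21 (male), E22 (female), E23 (male), E24 (female) and E25 (female). Extraembryonic tissue was dissected away before dissociation, per the labels' protocol. Day, sex and embryo cannot be told apart, because each later day is 1 embryo. The labels of libraries 26 and 27 disagree on the embryo or day, so their cells were kept under the embryo of the annotation and left out of fits between embryos; library 27 held 3 cluster 23 cells and library 26 held none.

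EVT cells leave the tips of the placental villi or, in early implantation, the trophoblast shell, and invade the uterine lining and its arteries. They stop dividing, digest matrix with secreted proteases, and restrain those proteases with inhibitors of the plasminogen system. MMP12 encodes macrophage elastase, a metalloprotease that cuts elastin. CSF2RB is the shared beta chain of the receptors for GM-CSF, IL-3 and IL-5, ENTPD1 (CD39) is a cell surface enzyme that breaks down ATP and ADP, and ADGRG6 (GPR126) is an adhesion receptor of the G protein coupled family that the mouse placenta needs.

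Cluster 23 cells were found in 22 of 44 libraries and in 7 of 9 embryos. E18 held 13 of them (20.3% of its 64 EVT cells, 95% exact Clopper-Pearson interval 11.3 to 32.2%), E20 held 19 (11.6% of 164, 7.12 to 17.5%) and E24 held 19 (17.3% of 110, 10.7 to 25.7%). E23 held 5 of 146 EVT cells (3.42%, 1.12 to 7.81%), E21 4 of 20 and E22 2 of 9. E25 held 2 of 48 (4.17%). None was found in E16-1 or E16-2, which had only 1 and 4 EVT cells. Over all embryos the share was 11.3% of EVT cells (8.82 to 14.2%). These intervals cover counting error only, and shares depend on the genes that set the clusters, so no test was made. Of the 64 cells, 42 came from female and 22 from male embryos.

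**Figure D1:**
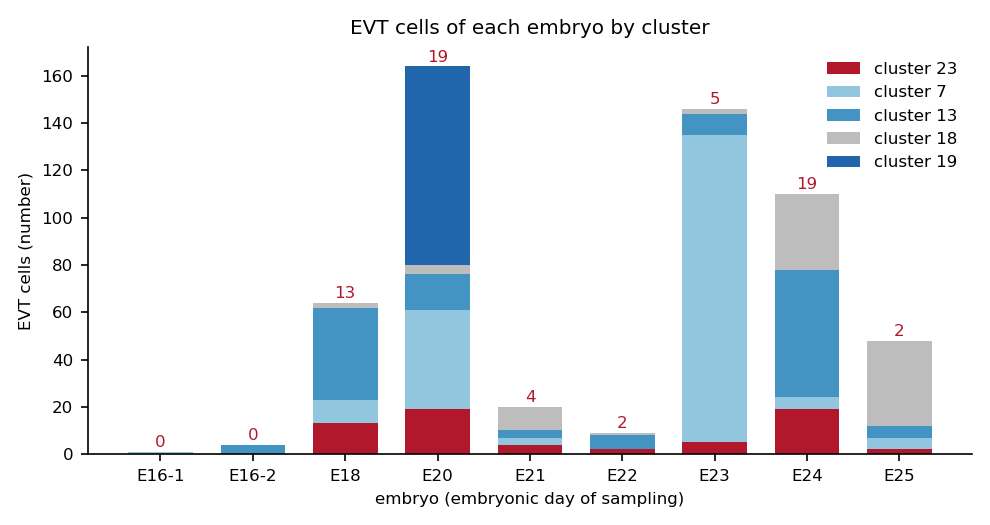
Number of EVT cells in each embryo (vertical axis), stacked by fine cluster, with the cluster 23 cells at the base and their number printed above each bar. E20 and E24 hold 19 cluster 23 cells each and E18 holds 13, while all 84 cells of cluster 19 come from E20.

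Differences in RNA between cluster 23 and the other EVT cells describe the cluster and were not tested, because the clusters were made from these same counts. For each embryo the counts of the cluster 23 cells were summed, and so were those of the other EVT cells. Levels are given as CPM, the gene's counts scaled to the same total in every such sum. A gene is called higher or lower where its log2(CPM + 5) differed at least 2-fold in the same direction in each of the 4 embryos with at least 5 cells on both sides (E18, E20, E23 and E24). No lengths of genes were used, so levels are compared within a gene only.

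The 4 genes that name the cluster did not behave alike. MMP12 stood at 6605 CPM in cluster 23 of E18, 14538 in E20, 30.2 in E23 and 1379.5 in E24, against 314 CPM in the other EVT cells of E18, 338 in E20, 111 in E23 and 715 in E24. Its level was thus above that of the other EVT cells in E18, E20 and E24, by under 2-fold in E24, and below it in E23. The log2 differences were 4.37, 5.40, -1.72 and 0.94 in that order of embryos (mean 2.25 ± 3.26, SD, n = 4 embryos), so the gene was not called. Within cluster 23 the 5 cells of E23 ran from 0 to 147 CPM with a median of 8.14, while the 13 cells of E18 ran from 189 to 11506 CPM with a median of 5781. In the embryos with fewer cells, MMP12 had 1184 CPM in E21, 7977 in E22 and 156 in E25, against 42.97, 0 and 18.6 CPM in the other EVT cells. MMP12 was thus higher in cluster 23 in 6 of its 7 embryos, and the label "MMP12 high" goes against the cells of E23.

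CSF2RB was called higher: 369 CPM in cluster 23 of E18, 471 in E20, 181 in E23 and 239 in E24, against 47.8, 24.7, 16.1 and 29.7 CPM in the other EVT cells of those embryos (mean log2 difference 3.20 ± 0.56, 9.17-fold). ENTPD1 had 110.4, 205, 233 and 95.5 CPM in cluster 23, against 3.20, 14.9, 15.2 and 11.4 CPM (3.35 ± 0.52, 10.2-fold). ADGRG6 had 599.8, 917, 567 and 361 CPM in cluster 23, against 86.5, 77.1, 77.8 and 36.7 CPM (3.03 ± 0.35, 8.20-fold). For each of the 3 genes every cluster 23 value lay above every value of the other EVT cells, E23 included.

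**Figure D2:**
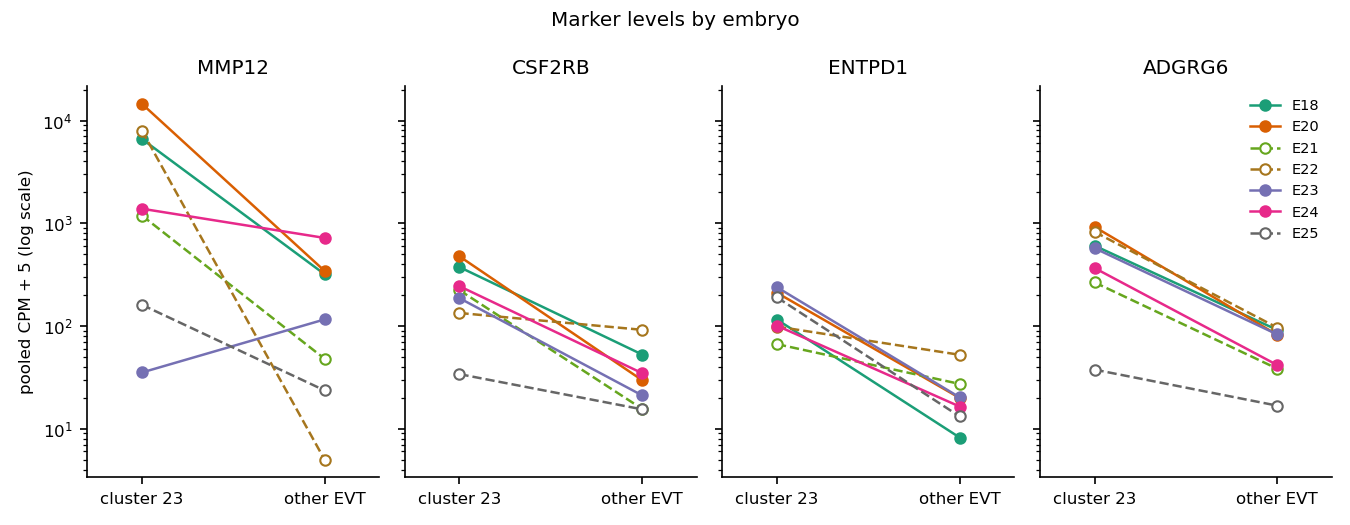
Pooled level of the 4 marker genes (CPM + 5, log axis) in cluster 23 (left) and in the other EVT cells (right), 1 line per embryo. Filled points and solid lines are the 4 embryos used for calls, and open points and dashed lines are embryos with fewer than 5 cluster 23 cells. The MMP12 line of E23 slopes the other way (30.2 against 111 CPM).

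Single cells differed likewise in how often the 4 genes were counted. MMP12 was counted in 89.1% of cluster 23 cells, CSF2RB in 93.8%, ENTPD1 in 92.2% and ADGRG6 in 96.9%, against 64.5%, 30.9%, 20.3% and 39.2% of the other EVT cells. All 4 were counted in 51 of the 64 cluster 23 cells (79.7%), in 44 of the 502 other EVT cells (8.76%) and in 35 of the 3116 cells of other classes (1.12%). Such shares rise with depth, and the median was 144964 counts per cell in cluster 23, 64817 in the other EVT cells and 10200 in their largest cluster, 7. With each cell thinned to 20000 counts, all 4 were counted in 34 of 63 cluster 23 cells (53.97%), in 5 of 331 other EVT cells (1.51%) and in 3 of 2918 cells of other classes (0.103%), leaving out 1, 171 and 198 shallower cells. In thinned cells MMP12 was counted in 84.1% of cluster 23 cells, CSF2RB in 88.9%, ENTPD1 in 77.8% and ADGRG6 in 88.9%, against 47.7%, 21.1%, 12.4% and 36.6% of the other EVT cells. Without thinning, by fine cluster, the share with all 4 was 16.7% in cluster 19, 15.6% in cluster 13, 6.90% in cluster 18 and 1.53% in cluster 7. It was 6.31% in STB (syncytiotrophoblast) cells, 1.46% in CTB (cytotrophoblast) cells and 1.01% in extraembryonic mesenchyme cells (EXMC), and 1 of 17 blood cells and 2 of 79 epiblast cells had all 4. MMP12 alone was counted in 55.9% of STB, 53.2% of CTB, 41.2% of blood and 34.01% of EXMC cells. Primitive streak cells, the class in which MMP12 was least often counted, had MMP12 in 7.46%, CSF2RB in 7.02%, ENTPD1 in 0.877% and ADGRG6 in 9.65% of cells, at a median depth of 98379 counts per cell against 144964 in cluster 23. Among the 26 fine clusters of the series, cluster 23 was the highest for each of the 4 genes. MMP12 had 9783 CPM over all its cells, and the next cluster, 7, had 612. CSF2RB had 388 CPM with 48.0 in cluster 13, ENTPD1 had 167 with 17.9 in cluster 7, and ADGRG6 had 729.8 with 90.2 in cluster 13.

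Over all 21834 genes, 146 were called higher in cluster 23 (0.669%) and 163 lower (0.747%). Of the 7778 genes with at least 10 CPM on either side in these embryos, 1.86% were called higher and 2.08% lower. The median log2 difference of all genes was -0.01 and that of genes with at least 10 CPM was -0.24. The counts depend on the embryos that must pass: 225 genes were higher without E23, and 242 were higher and 363 lower without E24.

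The largest higher value was that of TNFSF10 (TRAIL), a death ligand of the tumour necrosis factor family. It had 768 CPM in cluster 23 of E18, 1009 in E20, 2220.2 in E23 and 2016 in E24, against 0.400, 53.6, 230.1 and 88.1 CPM in the other EVT cells (mean log2 difference 4.74 ± 1.69, n = 4 embryos). AOC1, the diamine oxidase that breaks down histamine, followed with 4.05 ± 1.67 (638, 3887, 895 and 583 CPM, against 3.40, 177, 115 and 89.5 CPM). QSOX1, a secreted enzyme that forms disulphide bonds, was more even, with 3436, 7481, 8691 and 4836 CPM in cluster 23, against 251, 381, 1078 and 464 CPM (3.60 ± 0.54). All 3 genes were above the other EVT cells in each of the 4 embryos, with the widest gap for TNFSF10 and AOC1 in E18.

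The remaining genes of the 12 largest had mean log2 differences between 3.29 and 3.58. They are FCGR2A, a receptor for IgG, SERPINE2 (protease nexin-1), an inhibitor of serine proteases, FOLR2, a folate receptor, JAM2, a junctional adhesion molecule, MMP15, a membrane-bound metalloprotease, PCSK6, a proprotein convertase, ENTPD1, ELOVL4, an elongase of very long fatty acids, and WFDC2, a whey acidic protein family member. SERPINE2 had 12255, 32939.8, 17475 and 5115 CPM in cluster 23, against 462, 1778, 1804 and 1280.4 CPM. FCGR2A had 35.3, 427, 381 and 136 CPM in cluster 23, against 1.10, 12.3, 39.1 and 4.83 CPM. For JAM2, 927, 1080.1, 665 and 798 CPM in cluster 23 stood against 52.9, 66.9, 89.9 and 77.5 CPM.

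**Figure D3:**
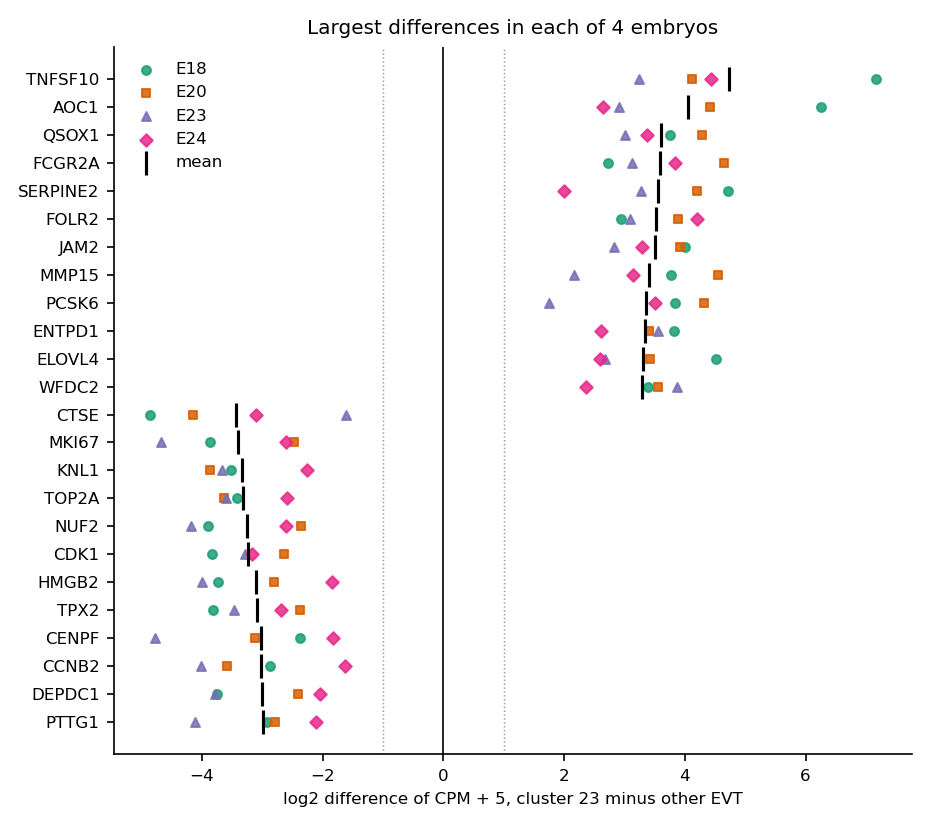
Log2 difference of CPM + 5, cluster 23 minus other EVT cells, for the 12 genes with the largest higher and the 12 with the largest lower mean, 1 point per embryo and a bar at the mean. Dotted lines mark 2-fold. TNFSF10 reaches 7.16 in E18, and the lower block is made up of cell division genes apart from CTSE and HMGB2.

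Several proteases and protease inhibitors were higher in cluster 23, where 0.669% of all genes were called higher and 0.747% lower. In the list of the plasminogen and serine protease system 5 of 14 genes were higher and none lower (median log2 difference 1.16, against -0.01 for all genes). They include SERPINE2, PLAU (urokinase), which makes plasmin, and the secreted serine proteases HTRA1 and HTRA4. PLAU had 96.2, 585, 79.5 and 63.9 CPM in cluster 23 of E18, E20, E23 and E24, against 15.3, 64.0, 34.1 and 13.7 CPM (2.10 ± 0.83). The urokinase receptor gene PLAUR was listed at 0 in cluster 23. An activator outside the call was PLAT, with 88.7, 443, 40.3 and 2.26 CPM, against 3.30, 13.8, 5.06 and 16.5 CPM, which lay below the other EVT cells in E24.

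Of 20 metalloproteases and their inhibitors, 3 were higher and none lower (median 0.03, and 1.94 over the 12 with at least 10 CPM). Over all genes 0.669% were called higher and 0.747% lower. MMP2 (gelatinase A) had 4328, 6234, 2109 and 854 CPM in cluster 23, against 465, 290.2, 516 and 165 CPM (2.99 ± 1.07). MMP15 had 126, 335, 94.1 and 77.5 CPM, against 4.61, 9.52, 17.2 and 4.36 CPM. TIMP2, an inhibitor that also helps to activate MMP2, had 30.2, 92.2, 58.3 and 34.6 CPM, against 6.31, 9.96, 10.9 and 9.55 CPM (1.94 ± 0.55). MMP14, which activates MMP2 at the membrane, differed by 2.57, 3.39, 0.94 and 0.82 on the log2 scale and so missed 2-fold in E23 and E24. Of 14 ADAM and ADAMTS proteases, ADAM19 was higher (2.94 ± 0.80) and none was lower. MMP14, PLAT, PLAUR, HTRA4 and PLAC8, CDKN1A and CDKN1B, and the proliferation genes beyond the first 4 are named although the naming rule does not reach them, after their values were seen.

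The lists that follow stand beside 0.669% of all genes called higher and 0.747% called lower. Of 19 EVT marker genes in the table, 8 were higher and none lower (median 1.19), and their summed level ran from 28276 to 32898 CPM in cluster 23 and from 5952 to 11129 CPM in the other EVT cells of the 4 embryos. Besides MMP2, HTRA4 and AOC1 they included HPGD, which inactivates prostaglandins (2.31 ± 0.52), NOTUM, which inactivates WNT proteins (2.10 ± 0.27), PLAC8 (2.07 ± 0.50) and fibronectin FN1 (1.94 ± 0.36). NOTUM had 2588, 3358, 4414 and 4560.5 CPM in cluster 23, against 511, 655, 1179 and 1279 CPM. Of 34 chemokine and interleukin genes 2 were higher and 1 lower, and of 21 genes of WNT, NOTCH and endothelin signals 2 were higher and 1 lower. In these lists 20 and 13 genes were under 10 CPM in the pooled cells of both sides. Among these lists and the hormones, the endothelin receptor EDNRB (2.39 ± 0.96), the cytokine IL1B (2.42 ± 0.88) and the growth factor GDF15 (2.69 ± 1.54) were higher, and IL6 was lower (-2.54 ± 1.04). AXIN2, a target of WNT signalling, was lower, at 21.8, 29.8, 0 and 69.2 CPM, against 158, 202, 34.98 and 163 CPM (-2.34 ± 0.80).

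Few genes in the pathways of the other markers were called, where 0.669% of all genes were called higher and 0.747% lower. Under 10 CPM in the pooled cells of both sides were 8 of 22 beta chain receptor and JAK-STAT genes. The same held for 13 of 24 purine genes and 10 of 20 adhesion receptor and ligand genes. Each list also counts its marker, so the lack of calls says little about these pathways. Of 22 genes of the common beta chain receptors and JAK-STAT signalling, CSF2RB and the kinase PIM1 (1.48 ± 0.47) were higher, and the genes of the ligands GM-CSF (CSF2) and IL-3 (IL3) were listed at 0 in cluster 23. Of 24 genes of purine nucleotide and adenosine signalling ENTPD1 was the only one called, and of 20 adhesion receptors and ADGRG6 ligands only ADGRG6 was called. Of 19 basement membrane and matrix genes 2 were higher (FN1 and HSPG2) and of 18 integrins none was called; ITGA1, the collagen-binding subunit alpha 1 often used as an EVT marker, differed by 1.63, 1.42, 1.90 and 0.58. Of 17 interferon and antigen presentation genes, B2M (1.28 ± 0.24), TAPBP (1.54 ± 0.25) and HLA-E (1.36 ± 0.26), which belong to class I presentation, were higher.

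Genes of cell division were the main lower group. Of 12 proliferation genes 9 were lower and none higher (median -2.58), where 0.669% of all genes were called higher and 0.747% lower. MKI67 had 2.17, 20.3, 1.12 and 5.64 CPM in cluster 23, against 99.8, 136, 152 and 59.5 CPM in the other EVT cells (-3.41 ± 1.06). TOP2A, the topoisomerase of dividing cells, had 9.67, 14.9, 13.4 and 15.8 CPM, against 151, 243, 219.7 and 119.7 CPM (-3.31 ± 0.49). The other 7 were CDK1, RRM2, CCNB1, BIRC5, CCNA2, AURKB and MCM6, and PCNA, MCM2 and MCM5 were not called. KNL1, NUF2, TPX2, CENPF, CCNB2, DEPDC1 and PTTG1, which act in the spindle, kinetochore or exit from mitosis, and the chromatin protein gene HMGB2 were among the 12 largest lower values. Cluster 23 had the lowest level of all 26 clusters for MKI67, TOP2A and CDK1. In the list of cell cycle inhibitors and endocycle genes 1 of 21 was called, E2F7 (lower), and neither CDKN1A (29.6 against 32.6 CPM) nor CDKN1B (28.9 against 44.5 CPM) was.

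Other lower genes were CTSE, the protease cathepsin E (1.93, 10.3, 1.12 and 12.8 CPM, against 195, 266, 13.8 and 147 CPM), and 2 of 32 trophoblast transcription factor genes, DLX3 (-2.63 ± 1.26) and ID2 (-2.24 ± 1.22). No gene was called in the lists of STB markers, hypoxia and glycolysis, endoplasmic reticulum stress, imprinted genes, complement regulators, epithelial and mesenchymal state or solute carriers. Over all genes 0.669% were called higher and 0.747% lower, so few calls are the rule in lists of this size. Of 22 trophoblast hormone and secreted factor genes GDF15 was the only one called. DUSP1 was higher among 11 immediate early and heat shock genes, and DGAT1 among 21 lipid storage and uptake genes.

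Some lists of markers of other cell types held 1 called gene, where 0.669% of all genes were called higher and 0.747% lower. The summed levels of some lists differed. Of 16 macrophage genes 1, TYROBP, was higher, and C1QA, C1QB, C1QC, CD163, MRC1, SPI1 and CD74 were listed at 0 in cluster 23. Of the 16 genes, 12 were under 10 CPM in the pooled cells of both sides, so the values at 0 say little. The sum of the 16 ran from 41.6 to 368 CPM in cluster 23 and from 13.3 to 49.6 CPM in the other EVT cells. It was higher in cluster 23 in each of the 4 embryos. Over all cluster 23 cells TYROBP alone made up 180 CPM of a sum of 230 CPM, so the sum mostly restates that gene. Of 10 endothelial genes ESAM was higher (1.31 ± 0.30), TIE1, CLDN5 and EMCN were at 0, and the sum ran from 3357 to 5659.8 CPM in cluster 23 and from 1408 to 2697 CPM in the other EVT cells, again higher in cluster 23 in each of the 4 embryos. In the libraries with at least 3 cluster 23 cells ESAM alone had 3265 CPM in E20 and 2699 CPM in E18. The other EVT cells there had 1401 and 1342 CPM of ESAM, so this sum rests in large part on that gene. Of 14 CTB genes PARP1 was lower. The 10 mesenchyme genes summed to 1302 to 4556 CPM in cluster 23 and 1646 to 8412 CPM in the other EVT cells, lower in cluster 23 in each of the 4 embryos, with none called; their median difference of -1.02 lay above 0 against cluster 13 alone (0.71), and COL3A1 differed by -1.06 against all other EVT cells and by 0.02 without cluster 18. None of 5 blood, 10 yolk sac endoderm, 7 epiblast and 8 amnion genes was called. The part of such RNA in the differences was not tested.

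Against single EVT clusters the contrast was unequal. Against cluster 7, 471 genes were higher (2.16% of all genes, 6.11% of those with at least 10 CPM) and 28 lower (0.128% and 0.367%). Against cluster 13, 156 were higher (0.714% and 2.01%) and 115 lower (0.527% and 1.5%). The median of the proliferation list was -2.03 against cluster 13, with 7 of 12 lower, and -0.49 against cluster 7, with 2 of 12 lower. Over 11259 genes, the pooled profile of cluster 23 correlated most with cluster 13 (Pearson r = 0.91), then with clusters 19 (0.88), 7 (0.87) and 18 (0.85), and less with the nearest CTB cluster (0.84) and the STB cluster (0.83). These are correlations across genes, which are not independent replicates. Cluster 23 was the highest of the 26 clusters by at least 2-fold, at 50 CPM or more, for 122 genes (0.559% of all), and an EVT cluster came next for 82 of them (35 with cluster 7, 29 with cluster 13, 17 with cluster 19 and 1 with cluster 18). By the same rule 1 gene had its highest level in cluster 7, 4 in cluster 13, 9 in cluster 19 and none in cluster 18. Outside EVT the largest numbers were 175 in the STB cluster, 99 in the endoderm cluster and 80 in the blood cell cluster.

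**Figure D4:**
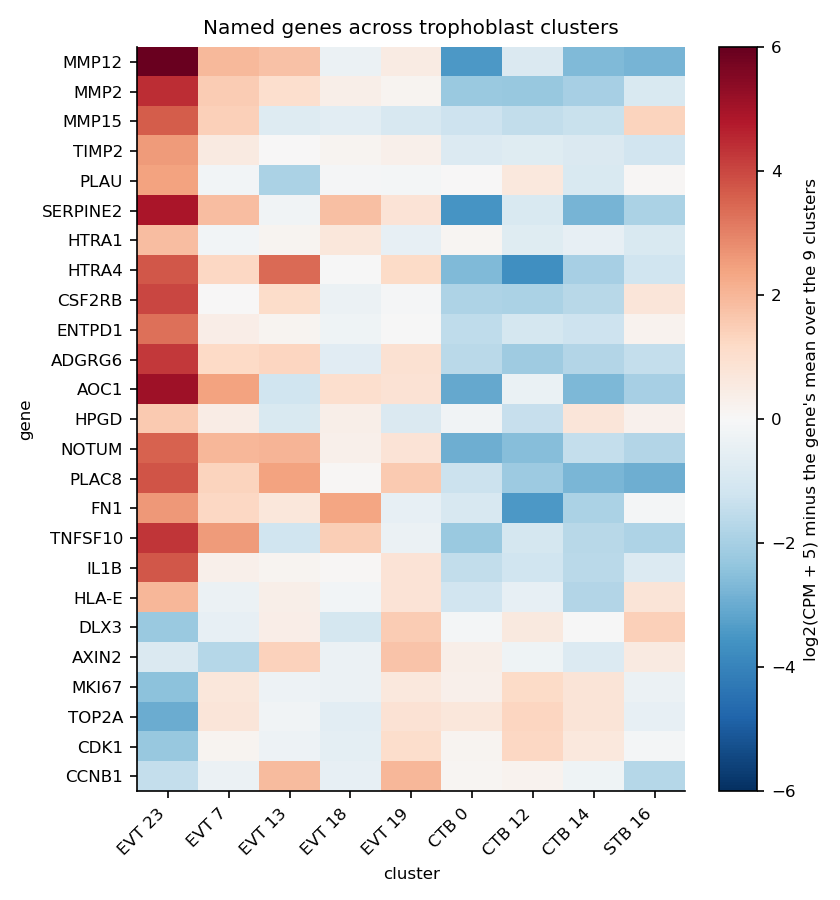
Level of 25 named genes in the 5 EVT clusters, 3 CTB clusters and the STB cluster, as log2(CPM + 5) of the pooled cells minus the gene's mean over the 9 clusters. Cluster 23, at the left, is red for proteases, inhibitors and its markers, and blue for MKI67, TOP2A and CDK1.

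Cluster 23 cells mostly held more RNA counts than the other EVT cells of their libraries. Their totals ran from 17888 to 2831708 counts per cell (median 144964) and those of the other EVT cells from 871 to 1827950 (median 64817), and the medians of genes detected were 5181 in cluster 23 and 3862 in the other EVT cells. The clusters were made from these same counts and differ in depth, so the differences are given as a description, with no test. In the 14 libraries with at least 2 cells of each side, the mean log2 total was higher in cluster 23 in 14 of 14 libraries, by 1.70 ± 1.16 (SD, n = 14 libraries; 3.24-fold), and genes detected per cell were higher by 1508 ± 1057. With at least 1 cell of each side the total was higher in 18 of 22 libraries. With the embryo as the unit it was higher in 6 of 7 embryos (1.17 ± 1.25), and genes detected were higher in 5 of 7 (860.0 ± 1096). E21 had a median of 52880 counts in cluster 23, against 95242 in the other EVT cells. By cluster the median was 10200 counts in cluster 7, 134753 in cluster 13, 77731 in cluster 18 and 336667 in cluster 19. Against clusters 13 and 19 only, the log2 difference in depth was 0.20 ± 1.05 (higher in 7 of 12 libraries) and the difference in genes detected was 209 ± 1124 (higher in 5 of 12). With each cell thinned to 20000 counts, which left 63 cluster 23 cells and 331 other EVT cells, genes detected differed by -11.8 ± 357 (higher in 5 of 14 libraries).

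Other measures moved with the cluster as well. The 13 protein genes of the mitochondrial genome took 3.81% of counts in cluster 23 and 7.65% in the other EVT cells. The share was lower in cluster 23 in each of its 7 embryos, with the widest gap in E23 (3.03 against 15.8%) and close values in E21 (10.7 against 11.3%) and E22 (4.50 against 4.95%). A paired DNA library was recorded for 62 of 64 cluster 23 cells (96.9%) and for 314 of 502 other EVT cells (62.5%), with 98.5% in cluster 13, 92.9% in cluster 19, 38.3% in cluster 7 and 32.2% in cluster 18. The deepest cell, in E20, gave 15.1% of all counts of cluster 23; without it 141 genes were higher and 172 lower. With every cell thinned to 20000 counts 139 were higher and 179 lower, and with clusters 13 and 19 as the only comparison 163 were higher and 156 lower.

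Within cluster 23, E20 was compared with E18, the embryos with the most libraries holding at least 3 of its cells (4 libraries of E20 and 3 of E18). The comparison was not part of the clustering rule, but it sets 1 female embryo of day 20 against 1 male embryo of day 18, so day, sex, embryo and library preparation cannot be told apart, and the p-values measure the spread between libraries of 1 embryo each. Of 6852 genes, edgeR's quasi-likelihood test called 75 higher in E20 (1.09%) and 159 lower (2.32%) at a Benjamini-Hochberg adjusted p under 0.05. Without library 42 of E18, 35 were higher and 81 lower, and without library 41 of E18, 39 were higher. None of the 4 markers was called: MMP12 had 24715, 5636, 9436 and 32502 CPM in the E20 libraries, against 6315, 6149 and 7414 CPM in the E18 libraries (log2 fold change 1.58 ± 0.53 SE, adjusted p = 0.130 in edgeR). The MMP12 values of 3 E20 libraries lay above all those of E18, and that of the remaining library lay below them. The adjusted p was 0.186 for CSF2RB, 0.220 for ENTPD1 and 0.335 for ADGRG6 (edgeR), with log2 fold changes of 1.11 ± 0.41, 1.36 ± 0.53 and 0.93 ± 0.44.

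Genes that rose in E20 included secreted factors and proteases. PROCR, the endothelial receptor of protein C, had 5298, 3146, 4490 and 2214 CPM in E20, against 176, 116 and 2.50 CPM in E18 (5.43 ± 0.86, adjusted p = 0.00120 in edgeR). MMP1 (interstitial collagenase) had 429, 104, 67.5 and 723 CPM in E20, against 0 in all 3 E18 libraries, which makes it at least 307-fold higher against a floor of 3 counts over the E18 libraries (adjusted p = 0.000266 in edgeR), or at least 197-fold without library 38 of E20. IGFBP7, an IGF-binding protein of the matrix, had 131, 953, 521 and 177 CPM in E20, against 1 count in E18, a ratio of 1986 with a counting interval of 356 to 78453 (adjusted p = 3.84e-05 in edgeR), or 1121 without library 36 of E20. CTSB, the lysosomal protease cathepsin B, had 1488, 1809, 1624 and 1403 CPM, against 281, 261 and 131 CPM (2.98 ± 0.43, adjusted p = 0.000619). For PROCR, MMP1, IGFBP7 and CTSB the E20 and E18 libraries did not overlap. These genes were named for their small adjusted p, and the share of all fitted genes without overlap was not counted. The lack of overlap thus adds nothing to the fit. PROCR and CTSB rose in the other EVT cells as well, by 2.33 ± 0.45 (adjusted p = 0.00394) and 1.07 ± 0.25 (0.0139, edgeR). TYROBP, the signalling adaptor named above among macrophage markers, had 213, 440.2, 397 and 227 CPM in E20, against 8.90, 0 and 0 CPM in E18 (6.22 ± 0.86, adjusted p = 0.000515). In the other EVT cells IGFBP7 had 2.99 CPM in E20 and 0 in E18, and TYROBP 6.23 and 0 CPM. Both changed upward there without a call (6.71 ± 2.42, adjusted p = 0.104, and 8.07 ± 2.61, 0.0705, edgeR). The cluster by embryo term called neither IGFBP7 nor TYROBP, so their rise was not shown to be particular to cluster 23.

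Of the genes that set cluster 23 apart, AOC1 (3.23 ± 0.64, adjusted p = 0.00525), PLAU (3.58 ± 0.70, 0.00525), FCGR2A (3.59 ± 0.77, 0.0103), GDF15 (3.00 ± 0.65, 0.0117) and HLA-E (1.46 ± 0.38, 0.0417) were also higher in E20 than in E18, and HTRA1 (-3.34 ± 0.82, 0.0283) and B2M (-1.81 ± 0.43, 0.0216) were lower (edgeR). In the other EVT cells of the same libraries AOC1 (3.89 ± 0.99, adjusted p = 0.0218) and PLAU (2.21 ± 0.57, 0.0218) rose in E20 too, and B2M fell (-2.80 ± 0.18, 1.71e-07, edgeR). HLA-E (0.84 ± 0.27, adjusted p = 0.0627), HTRA1 (-1.55 ± 1.11, 0.435) and GDF15 (0.24 ± 1.23, 0.934) moved the same way there without a call (edgeR). The cluster by embryo term sets the E20 over E18 change in cluster 23 against that in the other EVT cells. It was not called for any of these genes or FCGR2A. Its adjusted p was 0.94 for AOC1, 0.662 for PLAU, 0.657 for B2M, 0.977 for HLA-E, 0.980 for HTRA1, 0.468 for GDF15 and 0.999 for FCGR2A (edgeR). The genes with the smallest p among the lower ones were ATP8, a mitochondrial subunit of ATP synthase, RPS21 and RPL34, ribosomal proteins, SEC61G, AGBL5 and GTF2H5. ATP8 had 13.1, 3.69, 4.50 and 16.9 CPM in E20, against 813, 1478 and 1081 CPM in E18. These 6 fell in the other EVT cells too, with log2 fold changes between -7.49 and -2.81 there (edgeR, adjusted p under 0.05), ATP8 from the same libraries having 9.72, 9.45, 10.8 and 11.9 CPM in E20, against 1534, 1042 and 2039 CPM in E18.

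**Figure D5:**
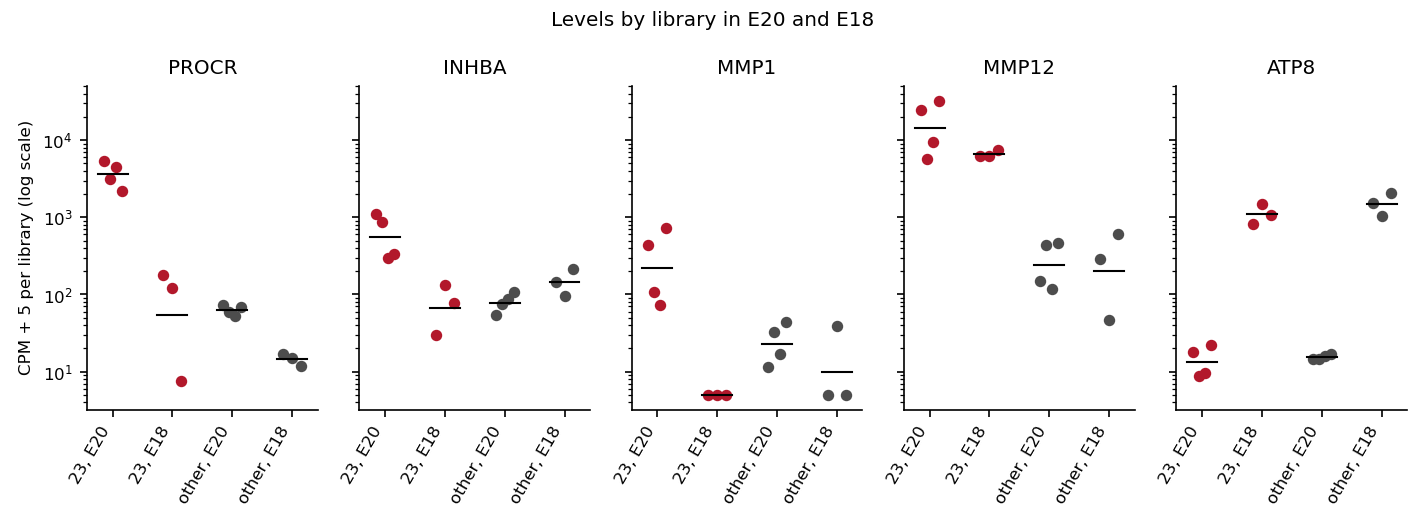
CPM + 5 per library (log axis) in cluster 23 (red) and in the other EVT cells (grey) of the 4 E20 and the 3 E18 libraries, with a bar at the geometric mean. PROCR, INHBA and MMP1 are apart between embryos within cluster 23, MMP12 overlaps, and ATP8 is lower in E20 on both sides.

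The cluster by embryo term, fitted with the library as a block, tested whether an embryo difference in cluster 23 differed from that in the other EVT cells. The other EVT cells of E20 were 84 of cluster 19, 42 of cluster 7, 15 of cluster 13 and 4 of cluster 18. Those of E18 were 0, 10, 39 and 2 in that order. The term, and the changes given above for the other EVT cells, thus cannot tell an embryo difference from this difference in clusters. It called 16 genes with a larger E20 over E18 difference in cluster 23 (0.165% of 9722) and 11 with a smaller one (0.113%). INHBA, which encodes the activin A subunit, had 1113, 878, 296 and 328 CPM in E20, against 25.1, 126 and 72.5 CPM in E18 within cluster 23. In the other EVT cells it had 49.0, 70.9, 81.4 and 102 CPM in E20, against 141, 91.2 and 210.1 CPM in E18 (interaction 4.61 ± 0.72, adjusted p = 0.00123 in edgeR). MMP2 and WFDC2, both higher in cluster 23 than in other EVT cells, had interactions of 2.56 ± 0.48 (adjusted p = 0.00593) and 2.58 ± 0.46 (0.00391), and TNFSF10 one of -5.31 ± 0.94 (0.00391, edgeR). Within cluster 23 MMP2, WFDC2 and TNFSF10 were not called (0.97, 0.97 and -0.16, adjusted p = 0.244, 0.378 and 0.948 in edgeR). Their changes in the other EVT cells were -1.19 (adjusted p = 0.122), -1.56 (0.0150) and 5.05 (0.00768, edgeR). With libraries of at least 2 cells on each side, which adds 2 libraries of E20, the edgeR term called none of 10153 genes (480 at an unadjusted p under 0.05, smallest adjusted p = 0.252), and with at least 3 cells the DESeq2 Wald test called 100. Leaving out library 40 gave 34 genes with a larger difference, and leaving out library 36 or library 41 gave 5 with a smaller one. The calls of this term depended on which libraries entered.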

How the data were processed

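RNA of single cells was read out in 44 libraries. The authors deposited raw counts per gene and cell, with the total count, the number of genes detected, the class, the fine cluster (RNA_snn resolution 2) and the embryo of each cell. Per the submitters' processing notes, cutadapt 1.15, STAR 2.6.0a and HTSeq 0.10.0 were used; the sources used here do not give the genome build, the clustering method, the treatment of doublets, or whether reads or molecules were counted. Column sums of the deposited counts equalled the annotated totals in every cell. The 96 cell labels each occur in more than 1 library, so cells were told apart by library and label. Library totals ran from 4393315 to 30568931 counts. Of 21834 genes, 16240 have a symbol; genes with an Ensembl identifier only were not named.

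The cluster, its comparisons and the 34 gene lists (524 genes, 483 in the table) were chosen with earlier results of these data known, so they are no independent support. Comparisons with clusters 7 and 13, the setting without the deepest cell, thinned marker shares and ratios without single E20 libraries were added after the data were seen. Named genes are the 4 markers, the 12 largest differences in each direction with the same sign in every embryo, at least 50 CPM and detection in at least 25% of cells, each list's called members (up to 4 per direction, or up to 2 of highest CPM where none is called), and up to 6 genes per direction with the smallest adjusted p of each fit and at least 50 CPM. Counts were scaled to CPM and log2(CPM + 5) differences taken per embryo. Depth was compared within libraries; the sign-flip permutation test planned for it is not reported, since the clusters were made from the same counts. Sums per library entered edgeR 4.0.16 (TMM, filterByExpr, quasi-likelihood F test) in R 4.3.3, with DESeq2 1.42.0 as an alternative; the procedures were tested on simulated data. The alternatives were other pseudocounts, scalings, filters, cell minimums, comparison clusters, thinning to 20000 counts, and leaving out each embryo or library. Replicate libraries of 1 embryo share that embryo. The result of 1 gene is not reported here.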

Additional observations from a re-analysis of the deposited data

Results flagged for a closer look

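For 14 named genes the E20 over E18 difference in cluster 23 differed from that in the other EVT cells of the same libraries, by the cluster by embryo term of edgeR's quasi-likelihood test (values are log2, cluster 23 minus other EVT cells, with the adjusted p). Larger in cluster 23 were INHBA (4.61, 0.00123), PROCR (3.84, 0.00391), HSD11B1 (3.96, 0.00391), the laminin gene LAMA3 (8.92, 0.00391), WFDC2 (2.58, 0.00391), MMP2 (2.56, 0.00593), MMP1 (10.74, 0.0133) and CTSB (2.04, 0.0478). HSD11B1, which regenerates active glucocorticoid, had 878 CPM in E20 and 143 CPM in E18 in cluster 23, and 9.95 CPM in E20 and 22.3 CPM in E18 in the other EVT cells. Smaller in cluster 23 were FOS (-2.75, 0.00391), TNFSF10 (-5.31, 0.00391), DEFB1 (-6.60, 0.00617), CKB (-2.93, 0.00617), OAT (-2.31, 0.0155) and CST6 (-8.91, 0.0189). Within cluster 23 itself LAMA3, WFDC2, MMP2, FOS, TNFSF10, CKB and OAT were not called between E20 and E18, and CST6 was not fitted. The values of LAMA3, MMP1, CST6 and TNFSF10 involve groups with few or no counts (TNFSF10 had 0.568 CPM in the other EVT cells of E18), so their fitted sizes depend on the prior count. No gene was called with libraries of at least 2 cells (INHBA then 3.05, adjusted p = 0.941). The other EVT cells of E20 and E18 also differed in their fine clusters, as given above, and the part of this was not tested. No sample stood apart from its group in the 85 groups examined for it, where chance would mark about 1 in 20.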

How the results depend on the processing

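The count of higher genes, 146, was 77 with a pseudocount of 20 CPM, 225 with embryos of at least 10 cells, 55 at 3-fold, and 178 to 242 leaving out each embryo. The count of lower genes, 163, was 342 with a pseudocount of 1 CPM, 50 with 20 CPM, 43 at 3-fold, and 228 to 363 leaving out each embryo. Fewer embryos must pass in the settings that leave embryos out. Against clusters 13 and 19 only the depth difference was 0.20 and that of genes detected 209; genes detected differed by 860.0 with the embryo as the unit and by -11.8 after thinning. Leaving out each library or embryo gave 1.37 to 1.90 for depth and 1289 to 1722 for genes detected. The share was 1.74% with all cells as the denominator. Within cluster 23 the 75 genes higher in E20 were 161 with no filter, 227 with DESeq2 and 35 to 80 leaving out each library; the 159 lower were 261 with DESeq2 and 81 to 165. For the cluster by embryo term, 16 larger were 34 with no filter, 50 with DESeq2, 0 with at least 2 cells and 11 to 34 leaving out each library; 11 smaller were 26, 50, 0 and 5 to 16. The causes were not tested. A minimum of 5 cells was not run for the fits, since it leaves 1 library against 1. No paired analysis was possible because the embryos share no replicate numbers; this concerns E20 against E18, while depth and the cluster by embryo term are paired within libraries. Few cells limit E21, E22 and E25, which hold 2 to 4 cluster 23 cells each.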
